A study of Mus musculus with 16 samples.

Results

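Serpins are a family of proteins built on one fold, in which an exposed reactive centre loop serves as bait for a protease. When a serine protease cuts the loop of an inhibitory serpin, the serpin changes shape and holds the protease in a covalent complex, so each molecule is used once. Clade B serpins lack a classical secretion signal and act mostly inside cells, others are secreted into blood and matrix, and a few members have lost the inhibitory role and act as a chaperone or a signalling protein.

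The genes described here are 8 serpins of 63 in the table: Serpinb1a, Serpinb6a, Serpinb8, Serpinb2, Serping1, Serpina3n, Serpinf1 and Serpinh1. They were chosen by symbol with the measured levels and Fgf8b responses of these same libraries in view. Their values are therefore given as a description, with no test. Together they hold 62 transcript entries, and all 8 passed the filter on low values (at least 0.5 RPKM in at least 4 of 16 libraries, met by 15222 of 29060 genes).

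The libraries were made from total RNA of primary preadipocytes, which are precursor cells of fat, grown from the stromal-vascular fraction of fat of C57BL/6N UCP1 reporter mice. There were 4 groups of 4 libraries: brown (interscapular) preadipocytes with Fgf8b, brown preadipocytes with control treatment, white (inguinal) preadipocytes with Fgf8b and white preadipocytes with control treatment. Fgf8b is a secreted fibroblast growth factor that acts through FGF receptors; no source used here gives its dose, its duration or the vehicle. All groups share the reporter strain and culture as primary cells. The series text speaks of 3 cultures while each group holds 4 libraries, so some libraries may share a culture, and the spread between libraries may be partly technical.

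Library depths, recovered from the table, ranged between 13.7 and 20.1 M reads. When recovered reads were compared pair by pair within groups, chi-square over its degrees of freedom reached 6.46 to 6.91 in the 3 pairs that include brown control 15 and 1.33 to 2.30 in the other 21 pairs, so that library stands apart. Labels number the brown libraries 9 to 16 and the white ones 1 to 8, and depot and library number cannot be told apart. Of 5 mature adipocyte markers 0 passed the filter, with a summed level of at most 0.118 RPKM in any library, although one label field calls the cells adipocytes. The 10 preadipocyte and fibroblast markers summed to 1097 to 1142 RPKM in brown Fgf8b, 2118 to 2547 RPKM in brown control, 1640 to 1828 RPKM in white Fgf8b and 3213 to 3308 RPKM in white control libraries. Zic1, a brown fat lineage gene, had 12.7 RPKM in brown Fgf8b and 12.8 RPKM in brown control libraries, against 0.162 RPKM in white Fgf8b and 0.176 RPKM in white control libraries. Zic1 is 1 of 4 brown fat markers. Under Fgf8b 2 of them were called higher and 2 lower in brown than in white preadipocytes, where 51.6% of all genes were called. Under control treatment 2 were called higher and 0 lower, where 33.9% were called. Ebf2 was the other higher one under both, and under Fgf8b Ucp1 (log2 -0.46, limma adjusted p = 0.00262) and Prdm16 (log2 -0.30, limma adjusted p = 0.00171) were lower in brown. In bulk RNA, fewer cells of a type and less RNA per cell cannot be told apart, and this holds for every level below.

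Levels are reads per kilobase of transcript and per M reads (RPKM) of the RefSeq transcript with the highest mean for each gene, as mean ± SD over 4 libraries. Fold changes are limma estimates on log2(RPKM summed over the entries of a gene + 0.5), which understates the change of low genes, with the standard error (SE). A gene was called when its Benjamini-Hochberg adjusted p over all 15222 genes was under 0.05.

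Most of the 8 genes were lower with Fgf8b in both depots. With Fgf8b in brown preadipocytes, 2 members were called higher and 5 lower, in a comparison that called 71.4% of all genes. In white preadipocytes 2 were called higher and 5 lower, where 65.7% of all genes were called. Since these contrasts were known when the genes were chosen, nothing is read from the counts. Serpinb2 and Serpinb6a were the ones called higher in both depots, Serpina3n was not called in either, and the other 5 were called lower in both.

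**Figure D1:**
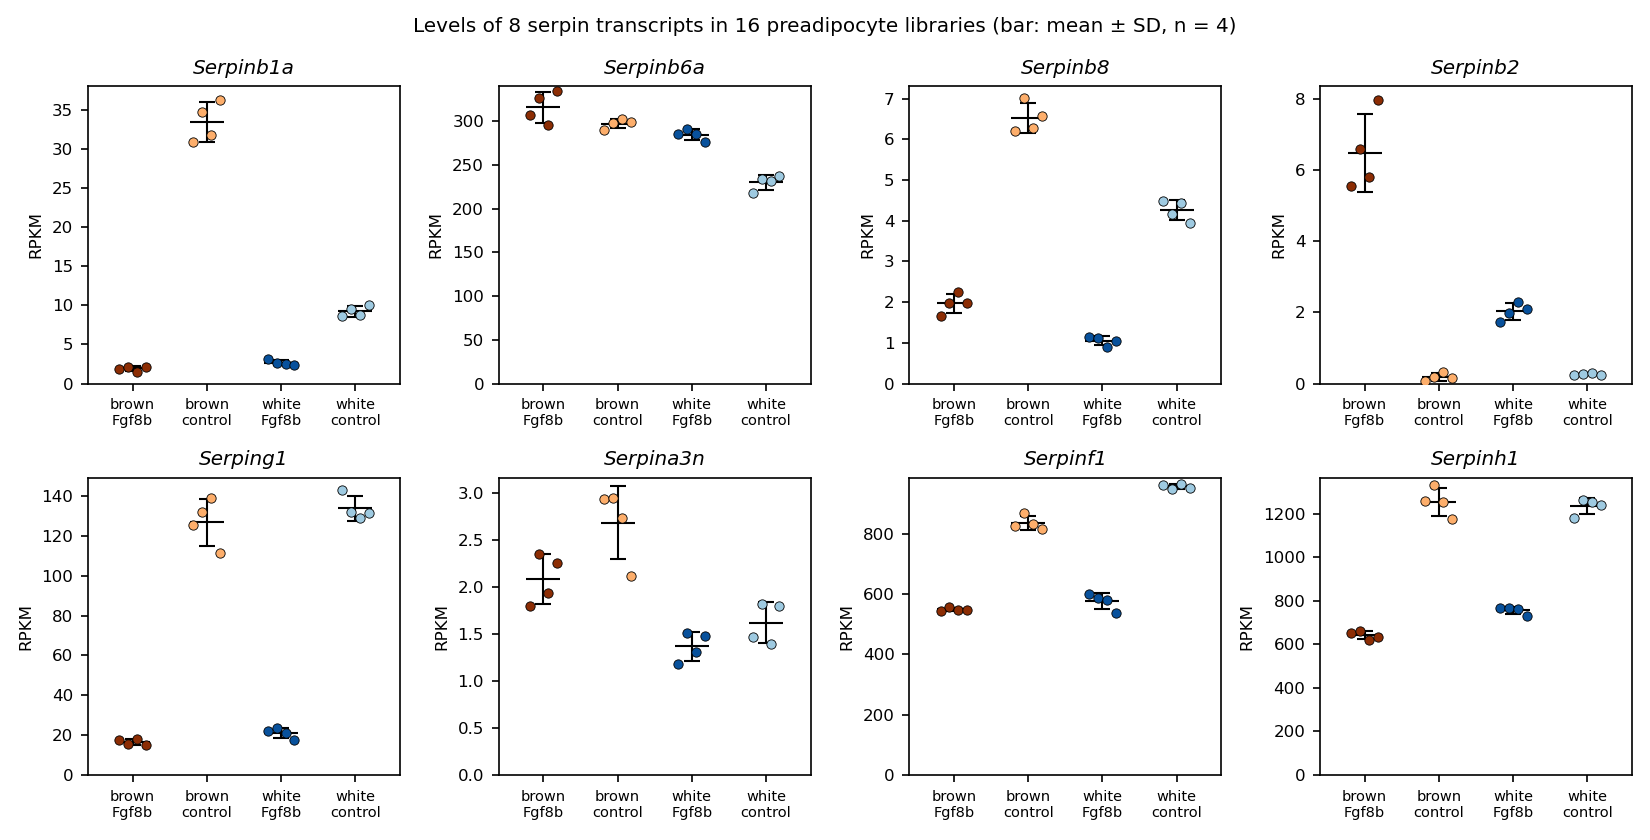
Levels in RPKM of the 8 serpins in 16 libraries; points are libraries, the long bar is the mean and the whiskers are the SD (n = 4), with each panel's axis starting at 0. Serpinb1a is highest in brown controls (33.5 RPKM), Serpinb2 is highest in brown Fgf8b libraries (6.48 RPKM), and Serping1, Serpinf1 and Serpinh1 lie lower with Fgf8b in both depots.

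Serpinb1a is an intracellular inhibitor of neutrophil elastase, cathepsin G and proteinase 3, known best from myeloid cells. It had 1.89, 2.15, 1.54 and 2.13 RPKM in brown Fgf8b libraries, against 30.96, 34.8, 31.9 and 36.4 RPKM in brown controls. In white preadipocytes it had 3.14, 2.68, 2.46 and 2.42 RPKM with Fgf8b and 8.60, 9.59, 8.80 and 10.1 RPKM with control treatment. The Fgf8b and control libraries did not overlap in either depot, and every brown control lay above every white control.

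Means of Serpinb1a were 1.93 ± 0.285 RPKM in brown Fgf8b and 33.5 ± 2.51 RPKM in brown control libraries, where the control mean was 17.4 times the Fgf8b mean. They were 2.68 ± 0.331 RPKM in white Fgf8b and 9.27 ± 0.686 RPKM in white control libraries, where it was 3.46 times. The log2 fold change was -4.08 (SE 0.0904) in brown and -1.77 in white preadipocytes, and the difference of these responses, brown minus white, was -2.32 (SE 0.128). That difference comes with a change of order between the depots. Under control treatment brown preadipocytes had the higher level (log2 1.84, brown over white), and under Fgf8b the lower one (log2 -0.48).

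The level of Serpinb1a rests on 43 to 62 reads in brown Fgf8b, 818 to 1123 in brown control, 75 to 105 in white Fgf8b and 258 to 364 in white control libraries. All 6 entries of Serpinb1a had Fgf8b libraries below controls without overlap in both depots. Of its 31-base words, 10.96% also occur in other genes, most often in Serpinb1b, whose own level was below the filter. No source used here says how the authors assigned reads that match several genes.

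Because Serpinb1a is abundant in granulocytes, 11 granulocyte and macrophage markers were set beside it. They summed to 1.63 to 2.31 RPKM in brown Fgf8b and 3.27 to 5.57 RPKM in brown control libraries, and to 1.87 to 2.46 RPKM in white Fgf8b and 2.52 to 3.25 RPKM in white control libraries. S100a8 and S100a9, calcium-binding proteins that fill granulocytes, were at 0 in every library. Ptprc, the common leukocyte antigen, was at 0 in every control library of both depots and reached at most 0.013 RPKM with Fgf8b. Lyz2, a lysozyme of macrophages, accounts for much of the sum in brown controls, with 0.171 ± 0.140 RPKM in brown Fgf8b and 2.96 ± 0.819 RPKM in brown control libraries. Of the 11 markers 4 passed the filter, and 1 was called higher and 2 lower in each depot. Their part in the values of Serpinb1a was not tested.

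Serpinb6a, an abundant intracellular serpin whose human counterpart inhibits cathepsin G, had the smallest Fgf8b fold changes among the called members. It had 307.2, 326.8, 295.8 and 334.7 RPKM in brown Fgf8b libraries, against 290.2, 298.1, 303.1 and 298.7 RPKM in brown controls, and these groups overlap. White libraries had 285.3, 291.7, 285.9 and 276.2 RPKM with Fgf8b and 218.2, 233.5, 231.4 and 237.3 RPKM with control treatment. Here the groups lie apart.

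The log2 fold change of Serpinb6a was 0.11 (SE 0.0398) in brown and 0.30 in white preadipocytes, and the difference, brown minus white, was -0.19 (SE 0.0563). The call in brown preadipocytes was lost under 6 of 24 alternatives, among them leaving out brown control 15 (log2 0.09). Of its 21 entries, Fgf8b libraries lay above controls without overlap for 1 entry in brown and for 17 entries in white preadipocytes, and overlapped for the rest. Serpinb6a ranked between 101 and 151 among 15222 genes by level, and was higher in brown than in white preadipocytes under Fgf8b (log2 0.16) and under control treatment (log2 0.34).

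Serpinb8, an intracellular serpin whose human counterpart inhibits the proprotein convertase furin in vitro, was lower with Fgf8b in both depots. It had 1.67, 1.99, 2.25 and 1.97 RPKM in brown Fgf8b libraries, against 6.20, 7.003, 6.28 and 6.58 RPKM in brown controls. White libraries had 1.14, 1.12, 0.889 and 1.05 RPKM with Fgf8b and 4.49, 4.16, 4.44 and 3.95 RPKM with control treatment. Neither pair of groups overlaps, and brown libraries lay above white ones under each treatment.

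For Serpinb8 the log2 fold change was -1.71 (SE 0.0884) in brown and -1.96 in white preadipocytes. The difference of the responses, 0.25 (SE 0.125), was not called. All 9 entries were lower with Fgf8b in both depots, and only 0.305% of its 31-base words occur in another gene. Furin, by contrast, rose, with 39.7 ± 1.15 RPKM in brown Fgf8b and 30.02 ± 2.99 RPKM in brown control libraries (log2 0.44, limma adjusted p = 9.12e-06), and with 41.7 ± 1.06 RPKM in white Fgf8b and 30.6 ± 0.912 RPKM in white control libraries (log2 0.49, limma adjusted p = 2.71e-06).

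Serpinb2, an inhibitor of the plasminogen activators that stays largely inside the cell, had the largest increase of the 8. It had 5.55, 6.60, 5.80 and 7.97 RPKM in brown Fgf8b libraries, against 0.0738, 0.193, 0.318 and 0.158 RPKM in brown controls. White libraries held 1.72, 1.99, 2.29 and 2.10 RPKM with Fgf8b and 0.227, 0.256, 0.301 and 0.252 RPKM with control treatment. Every Fgf8b library lay above every control, and every brown Fgf8b library above every white one.

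Those levels of Serpinb2 correspond to 167 to 231 reads in brown Fgf8b, 2 to 10 in brown control, 59 to 91 in white Fgf8b and 7 to 11 in white control libraries, so the control levels are poorly determined. The log2 fold change was 4.51 (SE 0.170) in brown and 2.59 in white preadipocytes, with a difference of 1.92 (SE 0.240). Computed from the representative transcript instead of the sum over entries, it was 3.35 in brown and 1.73 in white preadipocytes. It was 5.02 in brown and 2.92 in white with a pseudocount of 0.1 RPKM. Between depots, brown was higher under Fgf8b (log2 1.64), while the controls overlapped (log2 -0.28, not called). All 5 entries lay higher with Fgf8b without overlap in both depots, and none of the 31-base words of Serpinb2 occurs in another gene.

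**Figure D2:**
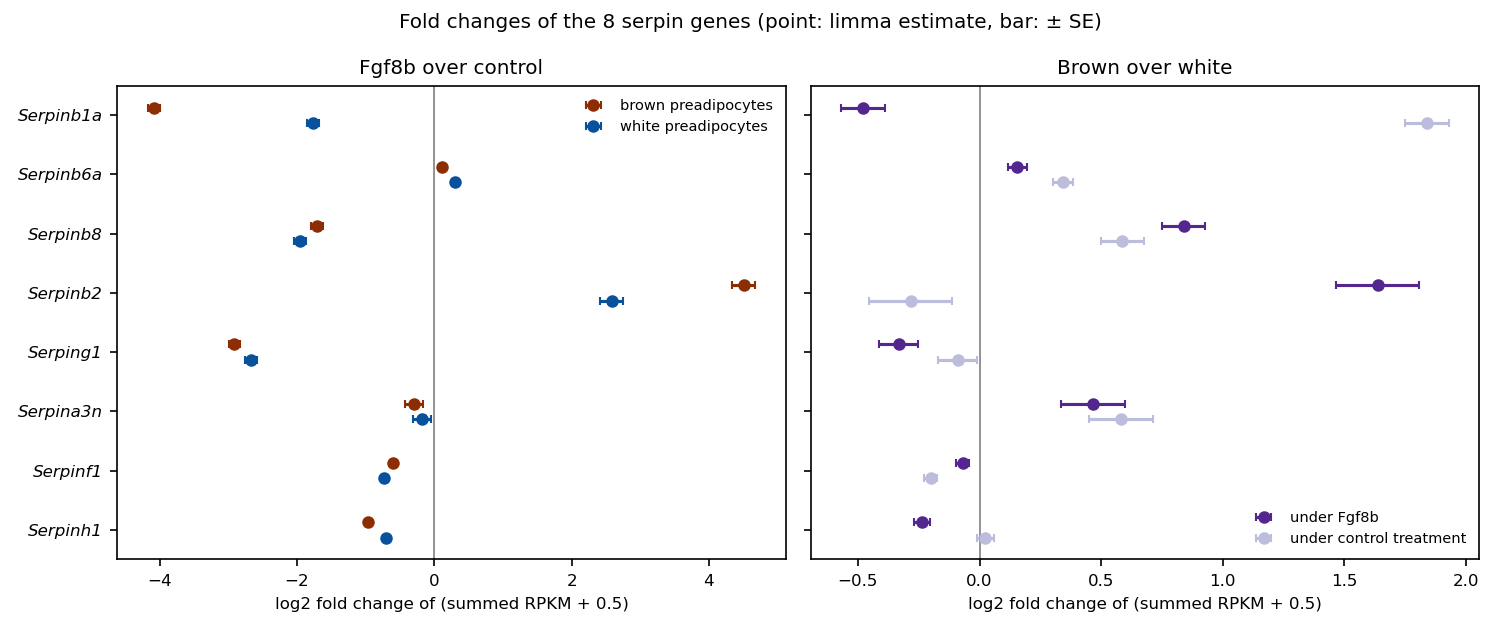
Log2 fold changes of summed RPKM + 0.5 for the 8 serpins (points: limma estimates; bars: SE); left, Fgf8b over control in each depot; right, brown over white under each treatment. Serpinb1a lies at -4.08 in brown and -1.77 in white preadipocytes, and its brown over white value is -0.48 under Fgf8b and 1.84 under control treatment.

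Serpinb2 and Serpinb8 lie close together on chromosome 1, in the RefSeq order separated by Serpinb10 alone, and differed in opposite directions with Fgf8b. The 250 bases before the RefSeq start of each are shown because these neighbours with opposite responses both hold TGANTCA, a loose form of the AP-1 motif. Only the Serpinb8 match has the C or G in the middle of the stricter form. They come from RefSeq on GRCm38.p6, plus strand, at chr1:107511173-107511422 for Serpinb2 and chr1:107589756-107590005 for Serpinb8, and overlap 0 GENCODE exons. Capitals mark motif matches.
Serpinb2: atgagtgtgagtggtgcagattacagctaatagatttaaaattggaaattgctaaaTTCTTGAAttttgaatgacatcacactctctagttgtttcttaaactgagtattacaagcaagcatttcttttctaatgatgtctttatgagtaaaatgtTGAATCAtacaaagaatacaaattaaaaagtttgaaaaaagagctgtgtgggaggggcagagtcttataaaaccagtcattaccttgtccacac
Serpinb8: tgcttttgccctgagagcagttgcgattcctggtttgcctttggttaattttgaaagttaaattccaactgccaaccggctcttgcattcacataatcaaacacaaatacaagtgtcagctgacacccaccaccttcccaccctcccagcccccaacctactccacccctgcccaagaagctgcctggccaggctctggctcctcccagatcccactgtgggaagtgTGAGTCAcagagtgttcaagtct

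Motifs were searched on both strands as TGANTCA (AP-1 with any base in the middle), CCGGAA (an extended form of the ETS core), TTCNNNGAA (STAT), and TTCNNGAA and GAANNTTC (heat shock elements). The Serpinb2 window holds TGAATCA, whose first base lies 94 bases before the start, and the heat shock type match TTCTTGAA 194 bases before it. In the Serpinb8 window TGAGTCA begins 23 bases before the start. Among 32851 RefSeq promoter windows of 250 bases, 6.75% hold TGANTCA, and 4.46% hold the form with C or G in the middle, as Serpinb8 does and Serpinb2 does not. TTCNNGAA is in 7.17% of them. In all, 6 of the 8 genes matched an entry, and Serpinb1a and Serping1 are named only. These 6 genes have 8 windows. A second Serpinb2 window, starting further along at chr1:107511260, holds the same TGAATCA and a STAT type match, TTCCAAGAA, 77 bases before its start. One Serpinb6a window, at chr13:34002795-34003044 on the minus strand, holds CCGGAA on either strand at 77, 41 and 39 bases before the start. The matches at 41 and 39 are opposite strands of the same stretch, TTCCGGAA, which is also a heat shock type match. That window also holds the STAT type match TTCCGGGAA, which overlaps the match at 77, and the heat shock type match TTCAAGAA. Of all RefSeq windows 12.03% hold CCGGAA and 7.02% the STAT letters. The other Serpinb6a window and those of Serpinh1, Serpinf1 and Serpina3n hold no match to these letters. The bases after the Serpina3n start match no GENCODE transcript of the gene, so that start is uncertain. GENCODE exons overlap some windows: 2 the Serpinf1 window, 4 the other Serpinb6a window, 1 the first Serpinb6a window and 2 the second Serpinb2 window. A match is a description of letters and not a binding site.

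Serping1 is the C1 inhibitor, a secreted serpin that blocks the first proteases of complement and the contact system. It had 17.7, 15.6, 18.1 and 15.1 RPKM in brown Fgf8b libraries, against 125.6, 131.9, 139.0 and 111.2 RPKM in brown controls. The white libraries had 21.9, 23.5, 21.1 and 17.8 RPKM with Fgf8b and 142.9, 132.1, 128.9 and 131.3 RPKM with control treatment. The treatments lie far apart in both depots, and within a treatment the depots overlap. Brown over white, Serping1 was called lower under Fgf8b (log2 -0.33, SE 0.0804), a call that every one of 24 alternatives also gave, and was not called under control treatment (log2 -0.09).

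The control mean of Serping1 was 7.63 times the Fgf8b mean in brown and 6.35 times in white preadipocytes. The log2 fold change was -2.91 (SE 0.0804) in brown and -2.67 in white preadipocytes, and their difference of -0.24 (SE 0.114) was not called. It was called under 2 of 23 alternatives, without white Fgf8b 8 and without brown control 15 (-0.31). By level the gene ranked 4599 in brown Fgf8b and 348 in brown control libraries, and 3693 in white Fgf8b and 317 in white control libraries. All 4 entries were lower with Fgf8b in both depots.

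Serpina3n, a secreted acute phase serpin that inhibits granzyme B in mice, was low throughout. It had 1.80, 2.36, 1.94 and 2.25 RPKM in brown Fgf8b libraries, against 2.93, 2.95, 2.74 and 2.12 RPKM in brown controls. Its level in white preadipocytes was 1.18, 1.51, 1.31 and 1.48 RPKM with Fgf8b and 1.47, 1.82, 1.40 and 1.80 RPKM with control treatment. Fgf8b and control libraries overlapped in both depots, and brown control 15 is the one brown control within the range of the brown Fgf8b libraries.

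Its log2 fold change was -0.30 (SE 0.132) in brown and -0.18 in white preadipocytes, neither called. Without brown control 15 the brown value was -0.39 and called. Brown libraries lay above white ones without overlap, by log2 0.46 under Fgf8b and log2 0.58 under control treatment. Serpina3n has 1 entry, and 21.6% of its 31-base words occur in other genes, most often in Serpina3f, so its level is uncertain to the extent that reads were shared.

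Serpinf1, pigment epithelium-derived factor, is a secreted serpin without inhibitory activity that preadipocytes and adipocytes release in quantity. It had 544.9, 556.3, 548.3 and 546.8 RPKM in brown Fgf8b libraries, against 824.5, 867.3, 833.5 and 816.5 RPKM in brown controls. White preadipocytes had 599.8, 587.7, 579.9 and 538.1 RPKM with Fgf8b and 961.7, 949.9, 965.2 and 951.5 RPKM with control treatment. Controls lay above Fgf8b libraries in both depots.

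For Serpinf1 the log2 fold change was -0.61 (SE 0.0276) in brown and -0.74 in white preadipocytes, with a difference of 0.13 (SE 0.0390). Brown controls were below white controls (log2 -0.20, brown over white). Under Fgf8b the depots overlapped (log2 -0.07), and that call was lost under 11 of 24 alternatives. The gene ranked 49 in brown Fgf8b and 24 in brown control libraries, and 47 in white Fgf8b and 21 in white control libraries. All 9 entries were lower with Fgf8b in both depots.

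Serpinh1, a chaperone of the endoplasmic reticulum that binds folded procollagen, was the most abundant of the 8. It had 653.0, 663.4, 621.8 and 632.6 RPKM in brown Fgf8b libraries, against 1260, 1332, 1255 and 1176 RPKM in brown controls. White preadipocytes held 765.7, 766.4, 765.1 and 732.0 RPKM with Fgf8b and 1181, 1265, 1256 and 1241 RPKM with control treatment. Controls of the depots overlap, and with Fgf8b every brown library lay below every white one.

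Serpinh1 had a log2 fold change of -0.97 (SE 0.0337) in brown and -0.71 in white preadipocytes, with a difference of -0.26 (SE 0.0477). Brown over white it was -0.24 under Fgf8b and 0.02 under control treatment, not called. It ranked 37 in brown Fgf8b and 10 in brown control libraries, and 29 in white Fgf8b and 13 in white control libraries. All 7 entries were lower with Fgf8b in both depots.

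Between depots under Fgf8b, 4 members were called higher and 4 lower in brown than in white preadipocytes, in a comparison that called 51.6% of all genes. Under control treatment 4 were called higher and 1 lower, where 33.9% were called. The difference of the Fgf8b responses was called for 5 members, higher for 2 and lower for 3, where 34.9% were called. These shares, too, belong to contrasts known at the choice of the genes. In order of mean level in brown controls the genes ran Serpinh1, Serpinf1, Serpinb6a, Serping1, Serpinb1a, Serpinb8, Serpina3n and Serpinb2. With Fgf8b in brown preadipocytes Serpinb2 stood next after Serping1, and Serpina3n, Serpinb8 and Serpinb1a followed with 2.09 ± 0.262, 1.97 ± 0.239 and 1.93 ± 0.285 RPKM, which do not differ beyond their spread.

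Across the 16 libraries Serpinf1, Serping1 and Serpinh1 followed each other most closely. On log2(summed RPKM + 0.5), Pearson's r was 0.98 between Serpinf1 and Serping1, 0.96 between Serpinf1 and Serpinh1 and 0.99 between Serping1 and Serpinh1, and -0.98 between Serpinb2 and Serpinh1. The intracellular Serpinb1a and Serpinb8 had r of 0.91 and 0.85 with Serpinh1. Serpinb6a and the secreted Serpina3n stood aside, with r of -0.60 and 0.30 with Serpinh1. The libraries fall into 4 groups, so these values mainly describe the order of the groups and carry no p.

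By the same measure over 16 libraries, the genes most like Serpinb1a were Pqlc3 (r 0.995), Trp53inp2 (r 0.992) and Fhl1 (r 0.991). For Serpinb2 they were Tes, Thbd and Soga2 (each r 0.992). Serpinb8 was closest to Timp3 (r 0.993), Kif1a (r 0.991) and Nod1 (r 0.991), and Serpinb6a to Tnfaip1 (r 0.970), Adcyap1r1 (r 0.956) and Aqp1 (r 0.954). Serping1 was closest to Adamts2 (r 0.999), Boc (r 0.997) and Srpx2 (r 0.997), and Serpinf1 to C4b (r 0.998), Efemp2 (r 0.996) and Sfrp1 (r 0.994). Serpinh1 was closest to Pmp22 (r 0.998), Gm13372 (r 0.996) and Fkbp9 (r 0.996), and Serpina3n to Tmem189 (r 0.953), Foxp1 (r 0.946) and Rap2a (r 0.940).

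The other serpins of the table show where the 8 stand in their family. Of 55 other serpins 11 passed the filter, and of the 44 that did not, 26 were at 0 in every library. With Fgf8b in brown preadipocytes 0 of the 11 rose and 9 fell (limma adjusted p under 0.05, met by 71.4% of all genes), with a median log2 fold change of -1.92 against 0.01 over all genes tested. In white preadipocytes 2 of the 11 rose and 9 fell, where 65.7% of all genes were called (median -1.11, against 0.04 over all genes). The difference of the responses was called for 9 of 11, higher for 2 and lower for 7, with a median of -0.52. It was called for 34.9% of all genes. Under Fgf8b 5 of the 11 were higher and 1 lower in brown than in white preadipocytes, near the 51.6% called over all genes. Under control treatment 7 were higher and 1 lower, where 33.9% of all genes were called. Serpina3c and Serpina3h, named after their values were seen, are listed at 0 in every Fgf8b library and Serpinb7 in every white one, so their fitted fold changes, and in part the medians, depend on the pseudocount. These genes passed the filter through control libraries. They are counted among those that fell in both depots, a direction that the filter largely set in advance.

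Serpinb6b, a clade B gene near Serpinb1a, had 1.62 ± 0.268 RPKM in brown Fgf8b and 15.2 ± 0.310 RPKM in brown control libraries (log2 -3.15, limma adjusted p = 1.15e-14). In white preadipocytes it had 1.28 ± 0.121 RPKM with Fgf8b and 1.79 ± 0.235 RPKM with control treatment (log2 -0.43, limma adjusted p = 0.0026). The difference of the responses was -2.72 (SE 0.160, limma adjusted p = 5.88e-10). Like Serpinb1a it was highest in brown controls, which exceeded white controls by log2 3.01 (limma adjusted p = 3.52e-13).

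Serpinb9, which in mice protects cells from granzyme B, fell to 5.65 ± 0.419 RPKM in brown Fgf8b libraries, against 25.4 ± 0.860 RPKM in brown controls (log2 -2.13, limma adjusted p = 1.87e-15). In white preadipocytes it fell to 5.66 ± 0.568 RPKM with Fgf8b, against 11.3 ± 0.394 RPKM with control treatment (log2 -1.01). Its difference of the responses was -1.12 (limma adjusted p = 6.81e-08). Serpinb6c fell by log2 values of -2.62 in brown and -2.11 in white preadipocytes, but 22.9% of its 31-base words are shared with other genes. Serpina3g, a clade A serpin with 28.8% of such words shared, fell to 1.017 ± 0.127 RPKM in brown Fgf8b libraries, against 4.78 ± 0.323 RPKM in brown controls (log2 -2.04). In white preadipocytes it had 1.63 ± 0.246 RPKM with Fgf8b and 5.26 ± 0.186 RPKM with control treatment (log2 -1.58).

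Serpine2, an extracellular inhibitor of thrombin and of plasminogen activators, fell to 16.1 ± 0.322 RPKM in brown Fgf8b libraries, against 46.9 ± 2.49 RPKM in brown controls (log2 -1.54, limma adjusted p = 2.23e-15), and to 14.6 ± 1.15 RPKM in white Fgf8b libraries, against 50.4 ± 1.46 RPKM in white controls (log2 -1.79, limma adjusted p = 3.42e-16).

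The clade B genes lie in runs without other protein-coding genes between them in the RefSeq annotation, 16 on chromosome 13 from Serpinb1a to Serpinb6a and 12 on chromosome 1 from Serpinb5 to Serpinb8. On chromosome 13, 6 of 16 passed the filter. Serpinb1a and the 4 other tested genes inside the run were lower with Fgf8b in both depots, and Serpinb6a at its far end was slightly higher. On chromosome 1, 3 of 12 passed. There Serpinb7, named for its place beside Serpinb2 after its values were seen, had 0.00879 ± 0.0176 RPKM in brown Fgf8b libraries, against 0.775 ± 0.0863 RPKM in brown controls (log2 -2.62). Its Fgf8b levels lie far below the filter, so it passed through control libraries. Its fall is therefore given as a description with no test. In white preadipocytes it was listed at 0 with Fgf8b, against 0.170 ± 0.0242 RPKM with control treatment. Of the 3 tested genes of this run, Serpinb2 was higher with Fgf8b and those on either side of it were lower.

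**Figure D3:**
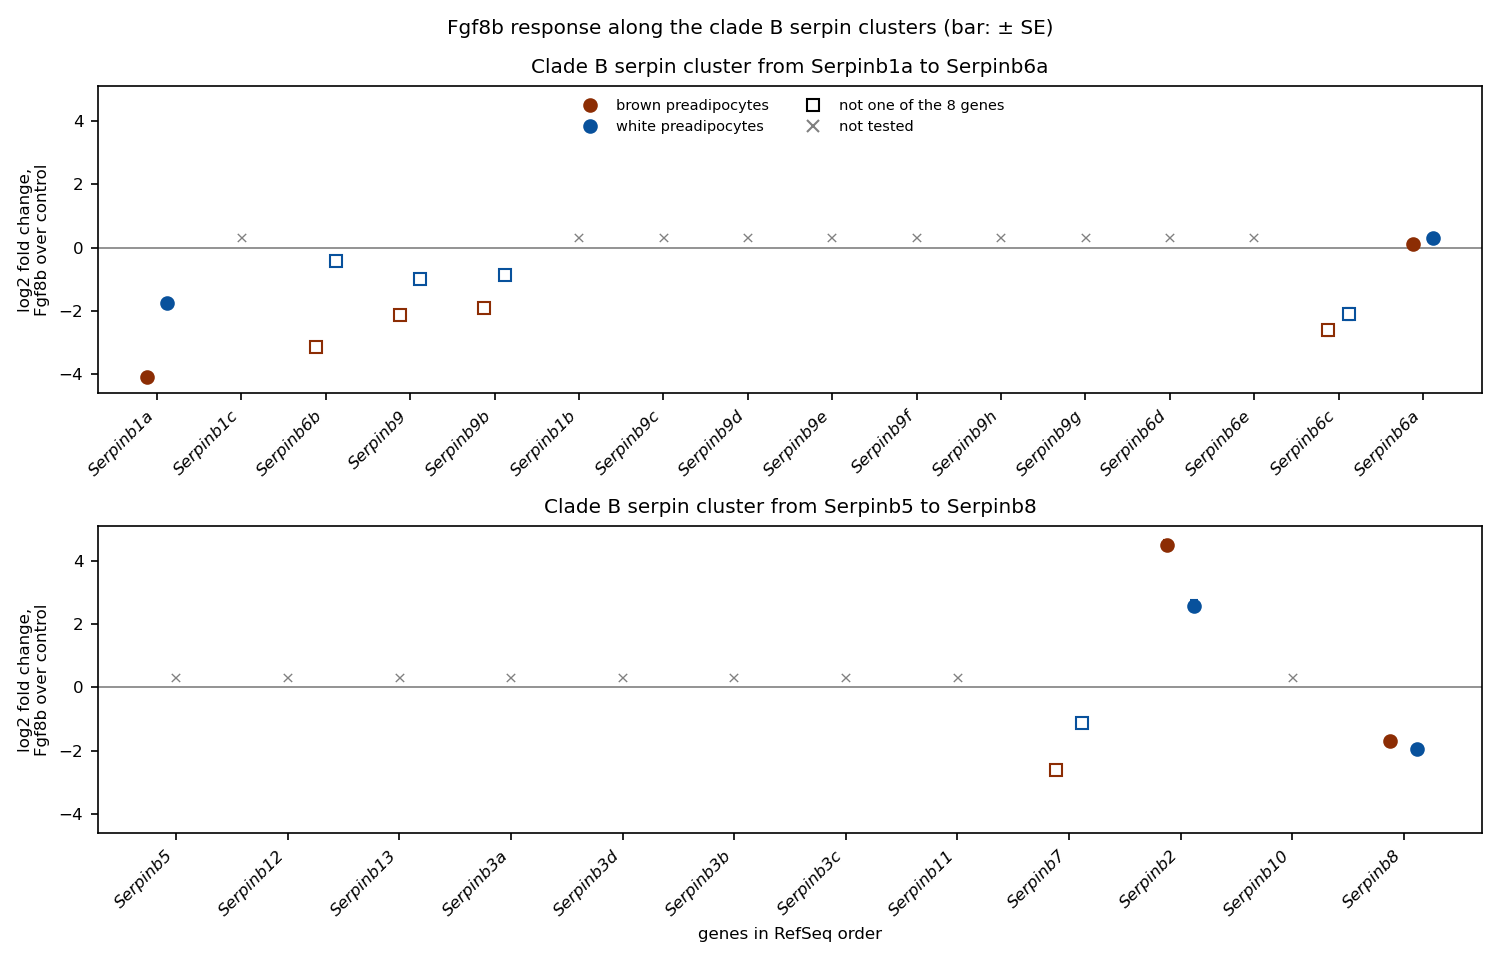
Log2 fold change with Fgf8b over control (points: limma estimates; bars: SE, often smaller than the point) of the clade B serpins in RefSeq gene order; filled circles are among the 8 genes, open squares are other serpins, crosses are genes not tested. Serpinb2 stands at 4.51 in brown preadipocytes between Serpinb7 at -2.62 and Serpinb8 at -1.71.

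Most serine proteases known as targets of these serpins were below the filter. Of 17 listed 5 passed, and the neutrophil proteases Elane and Ctsg and the granzymes Gzma, Gzmb and Gzmm did not. With Fgf8b 4 of the 5 rose and 0 fell in each depot (median log2 0.44 in brown and 0.49 in white preadipocytes). Of all genes, 71.4% were called in brown and 65.7% in white preadipocytes. Plau, urokinase, rose to 67.9 ± 0.467 RPKM in brown Fgf8b libraries, against 18.3 ± 0.963 RPKM in brown controls (log2 1.90, limma adjusted p = 6.29e-16), and to 65.9 ± 4.41 RPKM in white Fgf8b libraries, against 19.0 ± 1.05 RPKM in white controls (log2 1.77). Plat, tissue plasminogen activator, rose to 138 ± 3.95 RPKM in brown Fgf8b libraries, against 64.3 ± 1.55 RPKM in brown controls (log2 1.104), and by log2 0.72 in white preadipocytes. Prtn3, proteinase 3, was not called in either depot.

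Among 16 genes of complement C1 and the contact system, 10 passed the filter. With Fgf8b 4 rose and 6 fell in brown preadipocytes (median log2 -1.05), and 4 rose and 5 fell in white preadipocytes (median log2 -0.38). Over all genes, 71.4% were called in brown and 65.7% in white preadipocytes. The 6 include Klkb1, whose representative transcript had 0.0067 RPKM in brown Fgf8b and 0.0074 RPKM in brown control libraries. Its log2 value of -0.54 comes from the summed entries and helps set the brown median. C1s and C1ra, proteases of the C1 complex that Serping1 inhibits, fell in both depots. C1s fell to 4.82 ± 0.257 RPKM in brown Fgf8b libraries, against 52.0 ± 3.89 RPKM in brown controls (log2 -3.32, limma adjusted p = 1.99e-18), and to 12.7 ± 0.669 RPKM in white Fgf8b libraries, against 103 ± 5.34 RPKM in white controls (log2 -3.02, limma adjusted p = 1.12e-17). C1ra fell by log2 values of -2.60 in brown and -2.86 in white preadipocytes. Masp1, a lectin pathway protease that Serping1 also inhibits, rose in both, by log2 0.32 in brown (limma adjusted p = 0.00587) and 2.06 in white preadipocytes (limma adjusted p = 8.65e-13), and the difference of its responses was called (limma adjusted p = 2.68e-08). Bdkrb2, the receptor of bradykinin, rose to 6.00 ± 0.662 RPKM in brown Fgf8b libraries, against 0.110 ± 0.0772 RPKM in brown controls (log2 4.23), and to 5.67 ± 0.165 RPKM in white Fgf8b libraries, against 0.116 ± 0.0425 RPKM in white controls (log2 4.12). Kng2, a kininogen, fell by log2 values of -2.13 in brown and -1.81 in white preadipocytes, and the difference of these responses was not called (limma adjusted p = 0.313).

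Serpinh1 works beside the enzymes that modify and trim collagen, and all 24 genes of that list passed the filter. With Fgf8b 3 rose and 18 fell in brown preadipocytes (median log2 -0.56), or 3 and 20 without brown control 15. In white preadipocytes 6 rose and 16 fell (median log2 -0.23). The share of all genes called was 71.4% in brown and 65.7% in white preadipocytes. P4ha3, a prolyl hydroxylase subunit, fell to 6.60 ± 0.724 RPKM in brown Fgf8b libraries, against 31.4 ± 2.30 RPKM in brown controls (log2 -2.20, limma adjusted p = 1.3e-14), and by a log2 value of -1.37 in white preadipocytes. Adamts2, which removes the procollagen N-propeptide, fell to 21.8 ± 1.37 RPKM in brown Fgf8b libraries, against 92.1 ± 8.50 RPKM in brown controls (log2 -2.16), and to 25.8 ± 1.43 RPKM in white Fgf8b libraries, against 102 ± 0.501 RPKM in white controls (log2 -2.06). Its relative Adamts14 rose instead, to 15.7 ± 0.924 RPKM in brown Fgf8b libraries, against 3.64 ± 0.495 RPKM in brown controls (log2 2.09, limma adjusted p = 1.63e-14), and by log2 1.80 in white preadipocytes. Leprel1, a prolyl 3-hydroxylase, fell by log2 values of -2.16 in brown and -3.06 in white preadipocytes.

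Of 5 reported receptors of Serpinf1, all passed the filter. With Fgf8b 2 rose and 2 fell in brown preadipocytes, where 71.4% of all genes were called. In white preadipocytes 1 rose and 3 fell, where 65.7% were called. Plxdc2 fell to 7.29 ± 0.190 RPKM in brown Fgf8b libraries, against 39.8 ± 1.65 RPKM in brown controls (log2 -2.43), and to 3.66 ± 0.227 RPKM in white Fgf8b libraries, against 29.6 ± 1.22 RPKM in white controls (log2 -2.99, limma adjusted p = 1.05e-19). Lrp6, better known as a WNT co-receptor, fell by log2 values of -1.15 in brown and -1.020 in white preadipocytes. Pnpla2, the adipose triglyceride lipase, fell in white (log2 -0.57, limma adjusted p = 6.91e-06) and was not called in brown preadipocytes (limma adjusted p = 0.628), and the difference was called (limma adjusted p = 0.00194).

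Among 18 acute phase genes, the setting in which Serpina3n is best known, 11 passed the filter. With Fgf8b 4 rose and 5 fell in brown (median log2 -0.05), and 5 rose and 4 fell in white preadipocytes (median log2 0.13). All genes together had 71.4% called in brown and 65.7% in white preadipocytes. Lbp, the lipopolysaccharide-binding protein, had the largest fold changes of those with a mean of at least 1 RPKM. It fell to 0.150 ± 0.0659 RPKM in brown Fgf8b libraries, against 2.22 ± 0.1797 RPKM in brown controls (log2 -2.77, limma adjusted p = 6.38e-13), and to 0.251 ± 0.0770 RPKM in white Fgf8b libraries, against 2.36 ± 0.235 RPKM in white controls (log2 -2.38). Il6st, the signalling receptor of the interleukin-6 family, fell to 55.1 ± 1.18 RPKM in brown Fgf8b libraries, against 141 ± 3.74 RPKM in brown controls (log2 -1.36), and by a log2 value of -1.43 in white preadipocytes. Socs3, a feedback inhibitor of that pathway, rose by log2 0.86 in brown and 1.21 in white preadipocytes. Bcl3, an NF-kappaB cofactor, rose in white (log2 1.39, limma adjusted p = 1.68e-07) and was not called in brown preadipocytes (limma adjusted p = 0.844), and the difference was called (limma adjusted p = 7.97e-05).

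Of 10 preadipocyte and fibroblast markers 2 rose and 8 fell with Fgf8b in brown, and 3 rose and 7 fell in white preadipocytes. Their summed levels are given above, and Col1a1 accounts for much of the change in them. It had 234 RPKM in brown Fgf8b and 1313 RPKM in brown control libraries, and 415 and 1776 RPKM in the white ones. Thy1 and Pdgfra rose in both depots. For all 10 and the next markers, the share of all genes called was 71.4% in brown and 65.7% in white preadipocytes. Of 4 endothelial markers 1 rose and 2 fell in each depot, with sums of 1.41 to 1.73 RPKM in brown Fgf8b and 7.31 to 8.56 RPKM in brown control libraries, and of 2.39 to 2.88 RPKM in white Fgf8b and 10.96 to 11.7 RPKM in white control libraries. Tek accounts for most of the change in these sums. It had 0.380 RPKM in brown Fgf8b and 6.58 RPKM in brown control libraries, and 0.608 and 9.29 RPKM in the white ones. Kdr also fell, Cdh5 rose (log2 0.43 in brown and 0.66 in white), and Pecam1 was not called. Of 5 epithelial markers 2 passed and rose in each depot, with sums of at most 1.45 RPKM. The part of these shifts in the serpin values was not tested.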

How the data were processed

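RNA of 16 libraries was sequenced, and the authors deposited a table of RPKM values for 168326 transcript entries, written with decimal commas, per the file headers. Per the labels, total RNA went into the TruSeq v2 library kit. CASAVA and bcl2fastq are listed, per the submitters' processing notes, with no version. The aligner, the genome build and the strand setting were not given in the sources used here. Reads of a gene and of its antisense partner therefore cannot be separated.

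Entries with no gene symbol (23172, 13.8%) and 808 entries with a repeated accession were left out, none of them entries of the 8 serpins. The remaining 144549 were summed to 29060 genes. Since the values are not counts, log2(summed RPKM + 0.5) was tested with limma 3.58.1 in R 4.3.3 (trend and robust moderation, one fit over 4 groups, Benjamini-Hochberg adjusted p under 0.05), for the 15222 genes that reached 0.5 RPKM in 4 or more libraries. The script was tested on simulated data. Python 3.11.15 with pandas 2.3.3 did the rest.

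Depth came from the whole-read steps of the values with GENCODE M21 transcript lengths: of the values worth 50 reads or fewer, 94.8 to 95.3% came within 0.1 of a whole number. Depths were 14.6 to 16.0 M reads in brown Fgf8b, 13.7 to 16.1 in brown control, 16.1 to 20.1 in white Fgf8b and 15.6 to 19.7 in white control libraries. The number of reads behind a level limits its precision.

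The 8 genes, the lists of other genes and the tests were chosen with earlier results of these data known. Of each list, the text names at most the 4 called genes with the largest absolute fold change per Fgf8b comparison and a mean of at least 1 RPKM, plus Serpine2. Results for 1 listed gene are not reported here. Genes outside this rule, named after their values were seen, are Serpinb7, Serpina3c, Serpina3h, Klkb1, Plod2, Leprel4, the genes behind counts of 5 or fewer, and the markers. The 3 genes most like each serpin are those with the highest Pearson correlation among tested genes with that mean. Alternatives were other pseudocounts, filters and scalings, the compared groups alone, the representative transcript and leaving out each library.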

Additional observations from a re-analysis of the deposited data

Results flagged for a closer look

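Serpinh1 had 732.0 RPKM in white Fgf8b library 8, below the 765.1 to 766.4 RPKM of the other 3 white Fgf8b libraries. The gap was 0.962 of the whole range of the group, above Dixon's 95% critical value for 4 libraries. In all, 32 pairs of gene and group were examined, and chance flags about 1 in 20. The fold change of Serpinh1 in white preadipocytes ran from -0.73 to -0.69 when libraries were left out in turn.

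Among the collagen modification genes, Plod2, a lysyl hydroxylase, moved in opposite directions in the depots, with 59.3 ± 2.14 RPKM in brown Fgf8b and 140 ± 11.2 RPKM in brown control libraries, and 52.8 ± 2.60 RPKM in white Fgf8b and 42.7 ± 1.15 RPKM in white control libraries. The difference of its responses, brown minus white, was -1.52 on the log2 scale (limma adjusted p = 8.77e-12). Leprel4, a relative of the prolyl 3-hydroxylases, did likewise, with 35.7 ± 0.888 RPKM in brown Fgf8b and 41.3 ± 2.42 RPKM in brown control libraries, and 47.8 ± 2.01 RPKM in white Fgf8b and 37.3 ± 0.492 RPKM in white control libraries (difference -0.59, limma adjusted p = 2.68e-07). Both were named for this difference after their values were seen.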

How the results depend on the processing

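No paired analysis was possible because the groups share no library number, and no label says that libraries with neighbouring numbers belong together. Over 952 values of the 8 serpins under alternatives, 0 changed direction while called, 20 moved by more than the spread between libraries and 26 had another call, and 35 of 40 results had the same call throughout. The other calls were those of Serpinb6a and Serpina3n with Fgf8b in brown preadipocytes (6 of 24 alternatives each), Serpinf1 between depots under Fgf8b (11 of 24), Serpinb2 between depots under control treatment (1 of 24, without brown control 13) and the difference of responses of Serping1 (2 of 23).

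Leaving out each library in turn gave 10428 to 10872 called genes for Fgf8b in brown and 9478 to 10389 in white preadipocytes, 7199 to 8513 between depots under Fgf8b, 4479 to 5271 under control treatment and 4839 to 5875 for the difference of the responses. Of the 11 other serpins it gave 8 to 10, 10 to 11, 4 to 6, 7 to 9 and 7 to 9 called, in the same order of comparisons. No count of called genes or other serpins moved by over 1.5 times under any alternative, and the share of higher calls moved by under 10 percentage points. Low counts limit Serpinb2 in controls, where libraries hold 2 to 11 reads.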
